A study of Mus musculus with 8 samples.

Results

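The miR-17-92 cluster is a group of microRNAs (miRNAs) cut from 1 primary transcript, and its mature strands mmu-miR-17, mmu-miR-20a, mmu-miR-18a, mmu-miR-19a, mmu-miR-19b and mmu-miR-92a (written without mmu, the prefix for mouse, below) were followed here across sorted cells of the mouse thymus. The members were taken as the rows of the deposited table that carry these 6 names, together with the same probes in the scanner output of each array, and are 6 of 1040 mouse miRNAs on the array and 6 of the 309 that were tested. All 6 passed the filter on low values, which asked that most spots of a probe be well above background on at least 2 of the 8 arrays. The samples were 3 preparations of CD45+ thymic cells (CD45+, EpCAM-), 2 of cortical thymic epithelial cells (cTECs; CD45-, EpCAM+, MHC II+, Ly51+) and 3 of medullary thymic epithelial cells (mTECs; CD45-, EpCAM+, MHC II+, Ly51-). All came from female NOD wildtype mice aged 4 weeks. NOD is the non-obese diabetic strain, no other genotype or treatment was included, and every preparation pooled thymi of 10 to 12 mice, so that a replicate is a pool and the p-values measure the spread between pools. Each preparation was hybridized with 1 dye to 1 of 8 arrays of a single slide, and a probe was printed in 5 spots.

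As background, the primary transcript of the cluster is cut into hairpins by Drosha, each hairpin is cut by Dicer into a duplex, and 1 strand of the duplex is loaded into Argonaute, where its seed selects target mRNAs. The cluster is driven by MYC and E2F factors, is best known in lymphocytes and their tumours, and its products lower the pro-apoptotic factor Bim. Proliferating lymphocyte precursors use it for survival, and miR-19 is its main oncogenic component in B cells. Since all members leave the same transcript, the design asks whether they differ between cell types by the same amount.

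The mature sequences show which members a probe or a target site can tell apart. They are taken from RefSeq (GRCm38.p6), which matched all 6 members, and each matched member is fully complementary to a stretch of its probe. They are printed 5′ to 3′ with the seed, bases 2 to 8, in capitals.
miR-17: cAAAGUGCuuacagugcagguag
miR-20a: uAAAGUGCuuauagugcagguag
miR-18a: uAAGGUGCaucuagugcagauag
miR-19a: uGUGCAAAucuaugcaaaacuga
miR-19b: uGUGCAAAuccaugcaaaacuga
miR-92a: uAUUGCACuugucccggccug
The 6 members fall into 4 seed groups, of which miR-17 with miR-20a and miR-19a with miR-19b form the shared ones. Counted from the 5′ end, miR-17 and miR-20a differ by C1U and C12U, and miR-19a and miR-19b differ by U11C alone, so that the probes within each of these pairs may share signal. G and C make up 57.1% of miR-92a and between 34.8% and 47.8% of the other 5 members.

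On GRCm38.p6 the hairpins lie on the + strand of chromosome 14, at chr14:115043671-115044506, a stretch of 836 bases. Their order is miR-17, miR-18a, miR-19a, miR-20a, then miR-19b and last miR-92a, and they start 0, 180, 329, 486, 634 and 756 bases from the first. The annotated host gene, Mir17hg, is a non-coding gene that spans chr14:115044390-115046728 in this table and holds all 80 bases of the miR-92a hairpin, 2 bases of the miR-19b hairpin and none of the other 4. miR-19b and miR-92a are also encoded on the X chromosome, with the same mature sequences, in the miR-106a-363 cluster. The arrays cannot tell the 2 loci of these members apart.

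Signals are given as the processed signal divided by each array's 75th percentile over those 65 mouse probes that all 8 arrays measured well above background, and set back to a common level. They carry no absolute unit and are compared for 1 probe between arrays, never between probes. The members miR-20a and miR-92a are among the 65 probes. On CD45+ replicate 1 miR-92a was itself the probe at the 75th percentile, so that its signal there was fixed by the scaling. Each CD45+ and each mTEC array measured all 6 members well above background, 5 were so on cTEC replicate 1 and only miR-20a and miR-92a on cTEC replicate 2. The cTEC arrays were the dimmest of the slide, with a 75th percentile before scaling of 2910 and 1364 against 4213 to 11503 on the other 6. Tests were run on log2 values after scaled signals under 621 had been raised to that floor, which is the lowest signal measured well above background on cTEC replicate 2. A second floor of 67.0, the lowest such signal on any array, is given where it matters.

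The labels were checked against miRNA markers. The summed signal of 6 hematopoietic miRNAs was 24259 to 28136 on the CD45+ arrays, 4131 to 5103 on the cTEC arrays and 3216 to 4619 on the mTEC arrays. That of 7 epithelial miRNAs (miR-203, miR-205 and the 5 of the miR-200 family) was 623 to 704, 4442 to 8620 and 36800 to 39058 in the same order, and 7 of the 7 were well above background on all mTEC arrays but only 3 of the 7 on both cTEC arrays. Of 7 endothelial and mesenchymal miRNAs the sum was 477 to 596 in CD45+ cells, 3759 to 7872 in cTECs and 6817 to 7157 in mTECs. Of 3 erythroid miRNAs none was well above background on a CD45+ or cTEC array, and 1 was so on an mTEC array. The sums add different probes and are set mostly by the brightest, such as miR-181a at 3615 on cTEC replicate 1 and miR-155 at 2184 on mTEC replicate 1. Those of the hematopoietic list in cTECs include 3 markers well above background on neither cTEC array.

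All 6 members were lower in mTECs than in CD45+ cells. The mTEC mean was between 23.0% and 34.9% of the CD45+ mean, as geometric means without the floor. For the seed pair of the miR-17 family, which holds the cell cycle and survival regulators of the cluster, miR-17 had scaled signals of 6533, 7206 and 6534 in CD45+ cells and of 1947, 1951 and 2150 in mTECs. miR-20a had 6352, 7043 and 6088 in CD45+ cells and 1861, 1835 and 1785 in mTECs. The lowest CD45+ array was above the highest mTEC array for both. Fitted on the log2 scale, mTEC minus CD45+ was -1.74 for miR-17 (standard error, SE, 0.091, limma adjusted p = 2.82e-05) and -1.83 for miR-20a (SE 0.083, limma adjusted p = 1.8e-05).

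**Figure D1:**
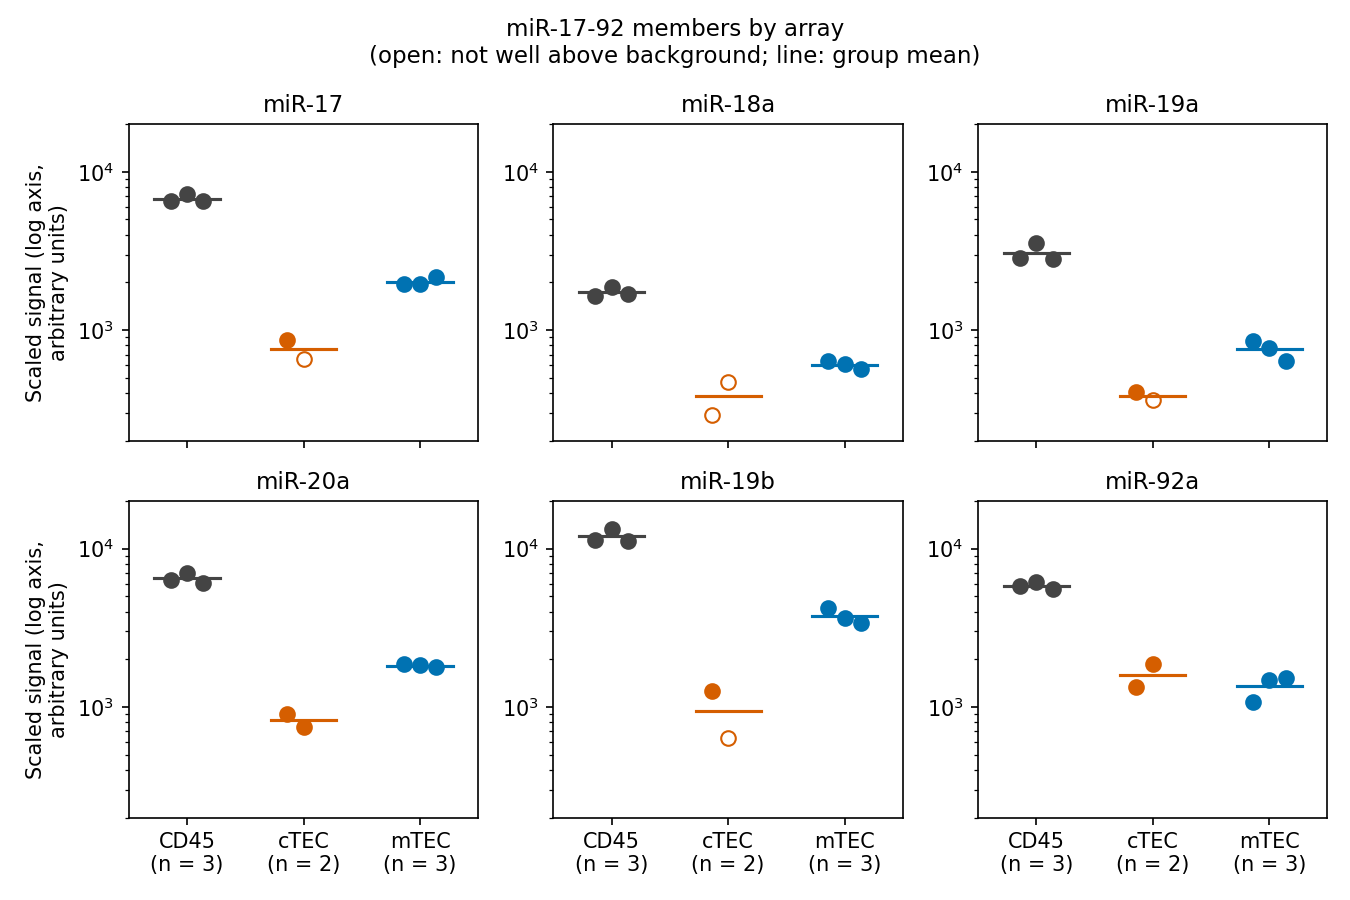
Scaled signal (arbitrary units, log axis) of each of the 6 members on each of the 8 arrays, grouped as CD45+ (n = 3), cTEC (n = 2) and mTEC (n = 3); points are arrays, open points are not well above background and lines are group means. The 3 CD45+ arrays stand above all cTEC and mTEC arrays for each member, cTEC arrays stand below mTEC arrays for each member but miR-92a, and for miR-92a the cTEC and mTEC arrays overlap.

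The miR-19 pair was lower in mTECs as well. miR-19a had scaled signals of 2840, 3542 and 2822 in CD45+ cells and of 858, 771 and 635 in mTECs. miR-19b had 11351, 13374 and 11146 against 4222, 3653 and 3393. No mTEC array reached a CD45+ array for either. The log2 fold change was -2.02 for miR-19a (SE 0.134, limma adjusted p = 8.42e-05) and -1.67 for miR-19b (SE 0.236, limma adjusted p = 0.00239).

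miR-18a, which is close in sequence to the miR-17 family but has a seed of its own, had signals of 1645, 1861 and 1698 on the CD45+ arrays. Its mTEC signals of 635, 613 and 567 were around the floor, so that its log2 fold change of -1.44 (SE 0.048, limma adjusted p = 6.54e-06) was limited by the floor, and with the lowest floor it was -1.52 (SE 0.229, limma adjusted p = 0.000953). miR-92a, the last hairpin of the cluster, had 5776 (fixed by the scaling), 6163 and 5562 in CD45+ cells and 1069, 1487 and 1514 in mTECs. Its log2 fold change of -2.12 (SE 0.180, limma adjusted p = 0.000255) was the furthest from 0 of the 6 in this comparison. No arrays of the 2 groups overlapped for miR-18a or miR-92a.

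In this comparison 6 of 6 members were lower and 0 higher at an adjusted p of 0.05, against 14.9% of all tested miRNAs called lower. The tested miRNAs include 83 at the main floor on every array, which could not be called here or in the comparisons of cTECs below. Groups that did not overlap, with mTEC below CD45+ on every array, were found for 6 of 6 members and for 29.8% of all tested miRNAs. The median log2 fold change of the members was -1.79, within a range from -2.12 to -1.44, beside a median of 0 over all tested miRNAs. With the lowest floor the median of all tested miRNAs was 0.45 and that of the members was again -1.79. In bulk RNA such as this, fewer cells of a type and less RNA per cell cannot be told apart, here and in the other comparisons.

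Of the hematopoietic markers, which would move with CD45+ cells in a sorted fraction, miR-150 on the mTEC arrays was 8.39% to 9.67% of its CD45+ mean, miR-181a 6.60% to 9.44% and miR-142-3p 7.28% to 13.3%. The members were at 18.3% to 36.6% over the same arrays, above these markers on each of the 3 arrays. miR-142-5p was at 11.9% to 16.9% and miR-223 at 13.1% to 17.4%. Neither was well above background on mTEC replicate 2, which gave the upper end of both ranges. miR-155, which immune cells induce through NF-kB, was at 44.9% to 74.9%. The part of CD45+ cells in the members' mTEC signal was not tested.

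cTECs also had less of all 6 members than CD45+ cells, and here the fitted differences were spread more widely. For miR-17 the cTEC signals were 862 and 661, the second not well above background, and for miR-20a they were 902 and 743, which places both cTEC arrays far below every CD45+ array. Fitted on the log2 scale, cTEC minus CD45+ was -3.12 for miR-17 (SE 0.102, limma adjusted p = 4.38e-06) and -2.99 for miR-20a (SE 0.092, limma adjusted p = 4.38e-06). miR-19b had 1261 and, not well above background, 634, with a log2 fold change of -3.69 (SE 0.263, limma adjusted p = 0.000113). No order is read among the members that cTEC replicate 2 did not measure well above background, which are miR-17, miR-18a, miR-19a and miR-19b.

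miR-92a was closer to its CD45+ level. Its cTEC signals of 1333 and 1863, in 5 of 5 spots well above background on both arrays, were 22.8% and 31.9% of the CD45+ mean. By contrast, miR-20a was at 13.9% and 11.4% on the same arrays, with 5 and 3 of 5 spots well above background. The log2 fold change of miR-92a was -1.89 (SE 0.201, limma adjusted p = 0.000563). Relative to its own CD45+ mean it was above miR-20a, the other member measured on both cTEC arrays, on each of them.

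miR-19a and miR-18a were near the limit of the cTEC arrays. miR-19a had 408, in 3 of 5 spots well above background, and 359, not well above background, and a log2 fold change of -2.29 (SE 0.150, limma adjusted p = 7.76e-05) that became -3.05 with the lowest floor. miR-18a was not well above background on either cTEC array, at 292 and 470. Its fitted log2 fold change was -1.47 (SE 0.053, limma adjusted p = 6.98e-06), a value and SE limited by the floor. With the lowest floor it was -2.26 (SE 0.256, limma adjusted p = 0.000153). Its cTEC level was also bounded, on each array, by whichever was higher of its signal and the weakest one well above background there. So bounded, miR-18a averaged at least 3.76-fold lower in cTECs than in CD45+ cells, and this bound was not tested.

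At an adjusted p of 0.05, 6 of 6 members were lower in cTECs than in CD45+ cells, against 20.1% of all tested miRNAs called lower. Both cTEC arrays were below every CD45+ array for 6 of 6 members and for 30.1% of all tested miRNAs. The median log2 fold change of the members was -2.64, within a range from -3.69 to -1.47, beside a median of 0 over all tested miRNAs. With the lowest floor the members' median was -3.03, within a range from -3.76 to -1.89, beside a median of 0.86 over all tested miRNAs. The hematopoietic markers on the 2 cTEC arrays stood at 27.3% and 7.25% of the CD45+ mean for miR-181a and at 15.3% and 21.7% for miR-150, the only 2 beside miR-155 (11.8% and 28.1%) that were well above background on both. The remaining 3 were not well above background on either array. They were at 7.43% and 14.6% for miR-142-3p, 13.9% and 33.5% for miR-142-5p and 16.2% and 70.8% for miR-223. No direction between the replicates is read from these 3. Of the markers measured on both, miR-150 and miR-155 were higher on replicate 2 and miR-181a on replicate 1. The endothelial marker miR-126-3p had signals of 2615 and 1013 on the cTEC arrays, against 189 to 260 on the CD45+ and 285 to 503 on the mTEC arrays. Of the same list, 2 markers well above background on all mTEC arrays did not stand high in cTECs alone: the smooth muscle and stromal miRNA miR-145 had 978 and 631 on the cTEC arrays against 2771 to 2978 on the mTEC arrays, and miR-143 had 3842 and 1164 against 3046 to 3454. The part of other cells in the cTEC signals of the members was not tested.

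**Figure D2:**
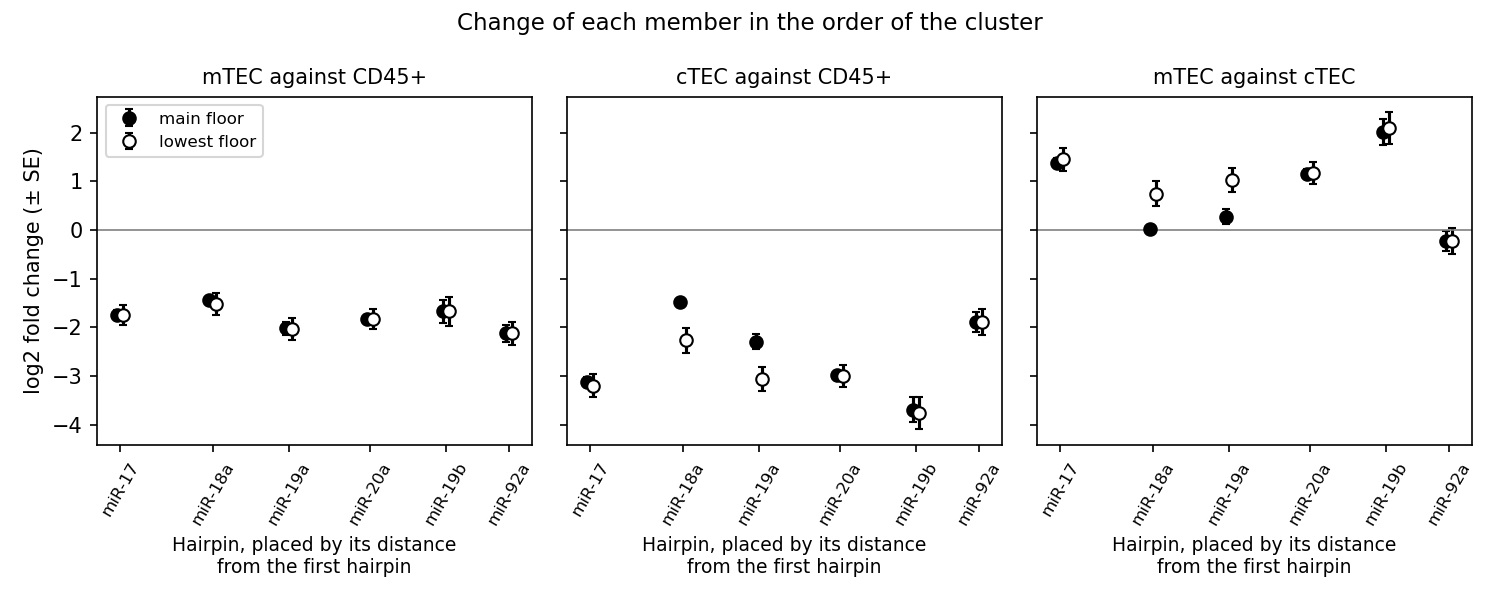
Log2 fold change of each member (points, with standard errors from limma) for mTEC against CD45+, cTEC against CD45+ and mTEC against cTEC, placed by the distance of its hairpin from the first hairpin of the cluster in bases; filled points use the main floor and open points the lowest floor. The members lie between -2.12 and -1.44 in the first panel and between -3.69 and -1.47 in the second, and in the third miR-19b is at 2.02 and miR-92a at -0.23.

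Between the epithelial fractions, 3 of the 6 members were higher in mTECs than in cTECs at an adjusted p of 0.05 and 0 were lower (0 also at an unadjusted p of 0.05), against 16.2% of all tested miRNAs called higher and 6.47% called lower. These were miR-19b, with a log2 fold change of 2.02 (SE 0.263, limma adjusted p = 0.00226), miR-17 with 1.38 (SE 0.102, limma adjusted p = 0.000224) and miR-20a with 1.16 (SE 0.092, limma adjusted p = 0.000296). All mTEC arrays were above both cTEC arrays for each of them. miR-17 and miR-19b were not well above background on cTEC replicate 2. miR-20a did not pass when arrays were scaled to the percentile of all mouse probes (2.05, limma adjusted p = 0.0653) or quantile normalized (0.78, limma adjusted p = 0.0761), and neither did miR-19b when quantile normalized (1.68, limma adjusted p = 0.05).

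The remaining members did not pass. miR-19a had a log2 fold change of 0.28 (95% interval -0.09 to 0.64, limma adjusted p = 0.343) and miR-18a of 0.03 (95% interval -0.10 to 0.16, limma adjusted p = 0.977), with cTEC values at or near the floor for both. For miR-18a, well above background on no cTEC array, the value and its interval are set by the floor. With its cTEC level bounded as above and averaged over both cTEC arrays, miR-18a was at least 1.31-fold higher in mTECs than in cTECs. The limit was 342 on cTEC replicate 1 and 621 on cTEC replicate 2, against an mTEC mean of 605. The bound thus rests on cTEC replicate 1, and cTEC replicate 2 alone gives none. With the lowest floor, miR-19a (1.03, limma adjusted p = 0.0131) and miR-18a (0.74, limma adjusted p = 0.0478) passed as well, which made 5 of 6 members higher against 23.3% of all tested miRNAs. The cTEC signals behind both calls were not well above background on 1 array for miR-19a and on 2 for miR-18a. For miR-18a neither the value of 0.74 nor the bound of 1.31-fold is read as a size.

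miR-92a was the only member with overlapping epithelial groups. The cTEC arrays had 1333 and 1863 and the mTEC arrays 1069, 1487 and 1514, and the log2 fold change of mTEC against cTEC was -0.23 (95% interval -0.72 to 0.27, limma adjusted p = 0.571). The interval includes 0 and does not show that the level is the same, and the direction turned to 0.80 (limma adjusted p = 0.281) with scaling to all mouse probes and to 1.54 (limma adjusted p = 0.0238) with no normalization. Quantile normalization gave -0.92 (limma adjusted p = 0.0538) and the deposited table -0.36 (limma adjusted p = 0.0285). The median of the members was 0.72, beside 0 over all tested miRNAs, and 1.10 with the lowest floor, beside -0.33.

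How far the members differed from each other in their changes was measured by taking each array's mean log2 signal over the 6 members from the signal of each member. The members are part of this mean, so that their departures add up to 0 on each array by construction. The mean itself was 12.29 ± 0.11 (SD, n = 3) in CD45+ cells, 9.72 ± 0.11 (SD, n = 2) in cTECs and 10.49 ± 0.02 (SD, n = 3) in mTECs. Relative to the CD45+ mean and without the floor, the members stayed within -0.05 to 0.09 of the cluster mean on the CD45+ arrays and within -0.64 to 0.35 on the mTEC arrays. On the mTEC arrays the widest departure was that of miR-92a on replicate 1, at -0.64, and on replicates 2 and 3 it was at -0.18 and -0.09. The arrays of 1 group thus differed from each other in this member.

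The same limma model was fitted to these departures over all 309 miRNAs. Between mTECs and CD45+ cells 96.8% of all tested miRNAs departed at an adjusted p of 0.05. This share and those below follow from subtracting a mean that itself differs between the groups, which makes miRNAs with no difference depart, and nothing is read from the members' counts against them. Of the members, 1 of 6 departed: miR-18a, which fell less than the cluster mean by 0.36 on the log2 scale (SE 0.078, limma adjusted p = 0.00142), and which lay at the floor in mTECs. With the lowest floor its departure was 0.30 (limma adjusted p = 0.285) and 0 of 6 members departed at an adjusted p of 0.05, which was also the count at an unadjusted p of 0.05, against 85.4% of all tested miRNAs. The 95% interval for miR-92a, with the main floor, was -0.73 to 0.10, and for miR-20a it was -0.19 to 0.14, so that differences within these limits between members could not be seen with 3 arrays a group.

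Between cTECs and CD45+ cells, 5 of 6 members departed from the cluster mean, against 96.4% of all tested miRNAs. On cTEC replicate 2 only miR-20a and miR-92a were well above background, and the other members enter the mean there. No order or size is read from the departures of those other members in cTECs, with either floor. miR-19b fell by 1.11 more than the mean on the log2 scale (SE 0.190, limma adjusted p = 0.00031). miR-17 and miR-20a fell by 0.54 and 0.41 more than the mean. miR-92a was above the mean by 0.68. miR-18a, well above background on neither cTEC array, was above it by 1.10, a value set by the floor. With the lowest floor the departure of miR-18a was 0.60 (limma adjusted p = 0.0707), and neither value is read as a size. Since miR-18a and miR-19a were at or near the floor in cTECs, which raises the cluster mean, the departures were also taken with the lowest floor. Then 2 of 6 members departed, against 88.3% of all tested miRNAs: miR-19b by -0.90 (SE 0.300, limma adjusted p = 0.0202) and miR-92a by 0.97 (SE 0.291, limma adjusted p = 0.0126). The departure of miR-92a did not pass when arrays were scaled to all mouse probes (0.62, limma adjusted p = 0.0878) or not normalized (0.60, limma adjusted p = 0.0693), where miR-18a and miR-19b departed. With the main floor and without cTEC replicate 2, the departure of miR-19b was -0.75 (limma adjusted p = 0.000271) and that of miR-92a was 0.36 and did not pass (limma adjusted p = 0.0876), with the lone cTEC array assumed to vary like those of the other groups.

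**Figure D3:**
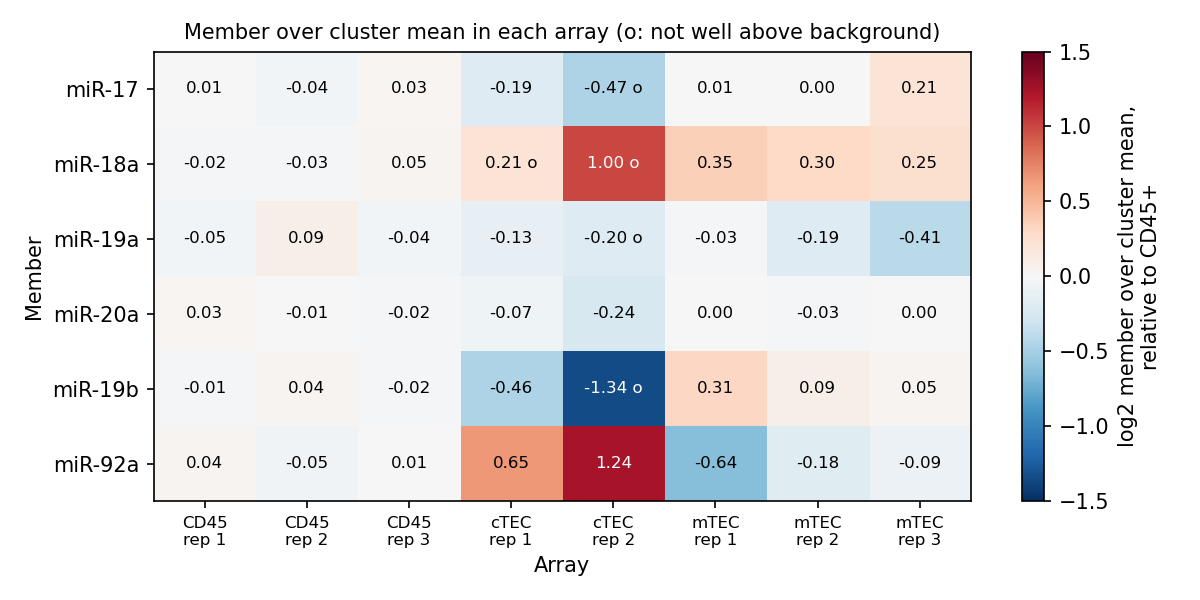
Departure of each member from the mean log2 signal of the 6 members on the same array, relative to the average over the CD45+ arrays, for the 8 arrays, without the floor; colour and number give the log2 value, and o marks a probe not well above background. On cTEC replicate 2 miR-92a is at 1.24 and miR-19b at -1.34, on cTEC replicate 1 they are at 0.65 and -0.46, and the CD45+ arrays lie between -0.05 and 0.09.

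Between mTECs and cTECs all 6 members departed with the main floor, against 91.9% of all tested miRNAs, and 2 with the lowest floor, against 64.1%. The 2 were again miR-19b, at 1.05 (SE 0.300, limma adjusted p = 0.0164), and miR-92a, at -1.27 (SE 0.291, limma adjusted p = 0.00655). On cTEC replicate 2 miR-19b was not well above background, and of the members in the mean only miR-20a and miR-92a were. No size is read from these departures. These 3 comparisons share arrays in pairs and are not independent.

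miR-20a and miR-92a were the members well above background on every array, and their ratio on 1 array needs no scaling between arrays. The log2 ratio of miR-20a over miR-92a was 0.14, 0.19 and 0.13 in CD45+ cells, -0.56 and -1.33 in cTECs, and 0.80, 0.30 and 0.24 in mTECs. Both cTEC arrays were below all others and all mTEC arrays were above all CD45+ arrays. On cTEC replicate 2, 3 of the 5 spots of miR-20a were well above background. The value of the ratio has no meaning as a level because the probes differ, only its difference between arrays has. The ratio is given as a description, with no test of its own.

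Each comparison was also taken within each row of the slide, which holds 4 arrays. Row 1 held 2 CD45+, 1 cTEC and 1 mTEC array, and row 2 held 1 CD45+, 1 cTEC and 2 mTEC arrays. The values within a row thus rest on single arrays in at least 1 group and are given as a description. The median log2 fold change of the members for mTEC against CD45+ was -1.83 in row 1 and -1.71 in row 2, and for cTEC against CD45+ it was -2.63 and -2.60. All 6 members were lower in each row in both comparisons. For mTEC against cTEC the median was 0.76 and 0.73, and miR-92a was the 1 member lower in mTECs in each row, at -0.32 and -0.30, while leaving out each array in turn took its fitted value from -0.47 (without cTEC replicate 1) to 0.01 (without cTEC replicate 2).

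The paralog clusters arose by duplication and share seeds with the members, although the miR-106b-25 cluster lacks those of miR-18a and of the miR-19 pair. The miR-106a-363 cluster lies on the X chromosome and the miR-106b-25 cluster on chromosome 5 within the replication helicase gene Mcm7. The sequences of the members of the miR-17 family and of miR-25 are shown because they differ from the members by few bases.
miR-106a: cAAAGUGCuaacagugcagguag
miR-20b: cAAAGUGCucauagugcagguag
miR-106b: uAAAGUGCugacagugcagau
miR-93: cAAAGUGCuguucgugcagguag
miR-25: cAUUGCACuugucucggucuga
miR-106a differs from miR-17 by U10A alone and miR-20b by U10C and C12U, so that the probes of these miRNAs may share signal with miR-17 and miR-20a.

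Of 7 paralogs, 5 were lower in mTECs than in CD45+ cells, against 14.9% of all tested miRNAs, 5 were lower in cTECs, against 20.1%, and 5 were higher in mTECs than in cTECs, against 16.2%. The 5 were miR-106a, miR-20b, miR-106b, miR-93 and miR-25 in each case, and none of them was well above background on cTEC replicate 2. With the lowest floor 6 were lower in mTECs than in CD45+ cells, against 20.7% of all tested miRNAs, 5 were lower in cTECs, against 27.5%, and between mTECs and cTECs 5 were higher, against 23.3%, and 1 lower, against 18.4%. The sixth lower in mTECs than in CD45+ cells and the 1 lower in mTECs than in cTECs were both miR-363-3p, which passed the filter only through the CD45+ arrays and was not well above background on any cTEC or mTEC array, so that the latter call compares signals at background and nothing is read from either. The members were 6 of 6 lower in both comparisons with CD45+ cells at that floor. miR-106b had 4473, 4977 and 4466 in CD45+ cells, 551 and 578 in cTECs, and 1474, 1472 and 1283 in mTECs. miR-93 had 5168, 5328 and 4871, then 821 and 510, then 1884, 1593 and 1660. The 3 cell types did not overlap for either, and their log2 fold changes of mTEC against CD45+ were -1.72 and -1.58 (limma adjusted p = 1.53e-05 and 9.74e-05).

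miR-25, which shares the seed of miR-92a, was 3257, 3425 and 3086 in CD45+ cells, 596 and 297 in cTECs, and 822, 734 and 819 in mTECs. Its cTEC arrays were at 18.3% and 9.13% of the CD45+ mean, below those of miR-92a. In mTECs over cTECs it was higher, with a log2 fold change of 0.32 (SE 0.066, limma adjusted p = 0.0169), where miR-92a had -0.23. Both cTEC signals of miR-25 were under the main floor, and with the lowest floor its value was 1.03 (SE 0.349, limma adjusted p = 0.0446). The difference between the log2 fold changes of these 2 miRNAs was not tested. miR-106a and miR-20b had log2 fold changes of -1.91 and -2.28 in mTECs against CD45+ cells (limma adjusted p = 1.53e-05 and 3.65e-06) and of -2.25 and -2.62 in cTECs against CD45+ cells (limma adjusted p = 1.09e-05 and 4.38e-06). The mean cTEC signals of both lay under the main floor, and with the lowest floor the latter were -2.86 and -3.08.

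The other 2 paralogs were dim. miR-18b had 129, 129 and 137 in CD45+ cells and was well above background on 3 of the 8 arrays. miR-363-3p was well above background on the 3 CD45+ arrays, at 166, 244 and 171, and on none of the cTEC or mTEC arrays, and no fold is read from it. Both were at the floor on every array in the test. miR-363-3p comes from the X-linked cluster that also encodes the copies of miR-19b and miR-92a.

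**Figure D4:**
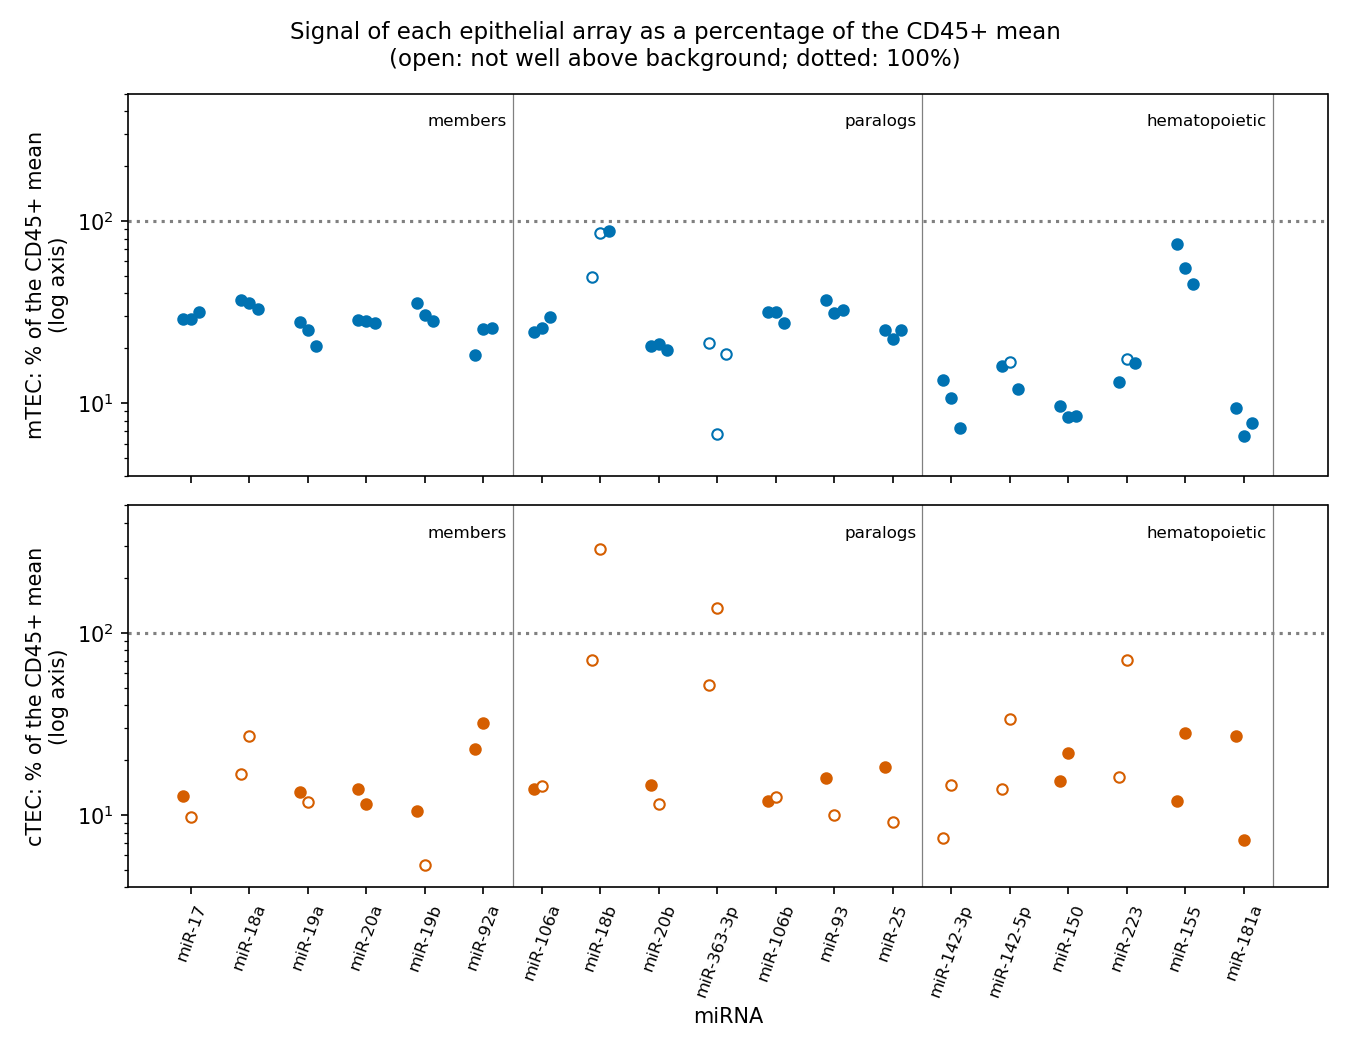
Scaled signal on each mTEC array (upper panel) and each cTEC array (lower panel) as a percentage of the CD45+ mean of the same probe (log axis), for the 6 members, the 7 paralogs and the 6 hematopoietic markers; points are arrays, open points are not well above background and the dotted line marks 100%. On the mTEC arrays the members lie between 18.3% and 36.6% and miR-150 between 8.39% and 9.67%, and on the cTEC arrays miR-92a is at 22.8% and 31.9%.

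Of the passenger strands, the other strand of each duplex, which is mostly degraded, 1 of 6 could be tested. miR-17* had 626, 775 and 748 in CD45+ cells, 109 and 303, not well above background, in cTECs, and 342, 314 and 363 in mTECs. It was lower in mTECs than in CD45+ cells by a log2 fold change of -0.22 with the main floor (limma adjusted p = 0.0323) and of -1.07 with the lowest floor (limma adjusted p = 0.0285), and the arrays of the 2 groups did not overlap. In cTECs it was at least 1.55-fold lower than in CD45+ cells. The passenger strands of miR-18a, miR-19a, miR-20a and miR-92a were well above background on no array and that of miR-19b on 1, so that they give no comparison.

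Other mouse miRNAs with the seed of miR-92a were miR-32, miR-363-3p, miR-367, miR-92b and miR-25. miR-32 and miR-367 were well above background on none of the 8 arrays and miR-92b on 1. The seed of the miR-19 pair was found in no other mouse miRNA with a matched probe.

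The miRNAs most like the cluster, other than its paralogs and passenger strands, were sought among 115 miRNAs measured well above background on 6 or more arrays, by Pearson's r of their log2 signal with the mean of the members over the 8 arrays. The 5 highest outside these lists were let-7d (r = 0.985), let-7f (0.985), miR-30e (0.979), miR-15b (0.971) and let-7g (0.957). The 8 arrays fall into 3 cell types and share their scaling, so that r is a description with no test. Their log2 fold changes of mTEC against CD45+ were -1.12, -1.19, -1.61, -2.36 and -0.90 in the same order, and 4 of these 5 thus changed less than the members' median of -1.79. Among the paralogs it was 0.992 for miR-106b and 0.984 for each of miR-106a, miR-20b, miR-93 and miR-25. Within the cluster, r with the mean was highest for miR-20a at 0.995 and lowest for miR-92a at 0.910, although each member is part of that mean.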

How the data were processed

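The authors hybridized the RNA of 8 preparations (CD45+ cells 3, mTECs 3, cTECs 2) to single-color arrays. They deposited 1 scanner file per array, whose spot intensity came from Feature Extraction (version 10.7.3.1 per the file headers). A second deposited file holds quantile-normalized log2 intensity, used as an alternative, and the authors' group means, fold changes, ratios, adjusted p-values, FDR and log odds, which were not used. The intensity values were background-subtracted by the scanner software before deposit.

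Outlier spots were left out, arrays were scaled to the 75th percentile of 65 probes, signals under 621 were raised to that floor, and log2 values were averaged over spots. The floor hides low signals and understates fold changes against dim groups. The 309 miRNAs that passed the filter on low values were fitted in 1 model of the 3 group means with limma 3.58.1 (lmFit, eBayes; R 4.3.3), with Benjamini-Hochberg adjustment over all of them, and 83 flat at the floor entered as not different. Departures were fitted in the same way after the mean of the 6 members on each array had been subtracted. Fold-change bounds used each array's lowest signal well above background.

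The limma fit was tested on simulated log2 values, for the calls of mTEC against CD45+ alone. The scaling, the filter, the departures, the bounds and the comparisons of cTECs were not simulated. The members, lists and floor were chosen with earlier results of these data known. The genes named are the members, their paralogs and passenger strands, the marker lists, and the 5 miRNAs outside the members, paralogs and passenger strands most correlated with the members' mean. miR-32, miR-367 and miR-92b were named after their values had been seen. Of 1040 mouse probes, 830 held the full complement of a RefSeq mature miRNA. Alternatives were other normalizations, the deposited table, normexp (offset 50), other floors and filters, the median of the spots, 2 groups alone, an intensity trend, replicate number or slide row as a block, and each array left out. The number of arrays limits the precision.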

Additional observations from a re-analysis of the deposited data

How the results depend on the processing

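All 6 members were lower in mTECs and in cTECs than in CD45+ cells under every alternative that gave a count. The filter on all 8 arrays kept only miR-20a and miR-92a and gave none. The median log2 fold changes for mTEC against CD45+, cTEC against CD45+ and mTEC against cTEC were -2.63, -4.45 and 1.69 when scaled to the percentile of all mouse probes, -2.35, -4.89 and 2.40 with no normalization, -1.23, -1.48 and 0.44 from the deposited table, and -1.69, -2.17 and 0.43 with normexp. Quantile normalization gave -2.25 for cTEC against CD45+ and 0.48 for mTEC against cTEC, and the median and lowest floors gave -3.03 and 1.10. The number of members higher in mTECs than in cTECs was 2 when scaled to the percentile of all mouse probes, 1 with quantile normalization, 6 with none, 5 from the deposited table, where 1 was lower, and 5 with the median and lowest floors, while 39, 58, 73, 83, 130 and 129 of all tested miRNAs were called in either direction in the same order. miR-92a turned there to 0.80 (limma adjusted p = 0.281) with scaling to all mouse probes, reversed with no normalization to 1.54 (limma adjusted p = 0.0238), was -0.92 with quantile normalization, and was lower from the deposited table, at -0.36 (limma adjusted p = 0.0285).

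Members that departed from the cluster mean numbered 0, 2 and 2 in the 3 comparisons when scaled to the percentile of all mouse probes, without normalization, and with the median and lowest floors, and normexp gave 3 and 3 in the last 2. The 2 for cTEC against CD45+ were miR-18a and miR-19b under the first 2 of these settings and miR-19b and miR-92a under both floors. For mTEC against CD45+ the number was 3 from the deposited table, 3 with no filter, 2 with 2 groups alone and 2 with slide row as a block. From the deposited table the departures of miR-19a and miR-19b there reversed to 0.23 and -0.34. With each array left out, 6 members stayed lower in both comparisons with CD45+, 3 stayed higher in mTECs than in cTECs, the medians ran from -1.82 to -1.73, from -2.70 to -2.56 and from 0.65 to 0.78, and the departures numbered 1 to 2, 4 to 6 and 6. Of all tested miRNAs 67 to 75, 82 to 170 and 58 to 147 were called, and the highest counts of the last 2 were those without cTEC replicate 1, so that the shares of all tested miRNAs called in these comparisons depend on that array. Without cTEC replicate 1, without cTEC replicate 2 or without mTEC replicate 1, 2 members departed for mTEC against CD45+. An alternative chosen after seeing the data, the lowest floor without cTEC replicate 2, with the spread taken from the other groups for the 1 cTEC array, gave medians of -2.90 for cTEC against CD45+ and 1.04 for mTEC against cTEC, 5 members higher in mTECs than in cTECs, 2 departures in each of these comparisons, and a reversed departure of miR-18a of 0.083 for mTEC against cTEC (limma adjusted p = 0.681).

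Deviations from the group means had r from -0.23 to 0.28 for 7 pairs of arrays with the same replicate number, against -0.35 to 0.29 for 14 pairs of unlike number. Same-number pairs of cTEC and mTEC arrays had 0.28 and 0.20, and those with CD45+ arrays -0.23 to 0.20. The 2 cTEC arrays deviate in mirror image by construction, so that these ranges cannot show whether arrays of the same number are paired. Under a replicate block the medians were -1.79, -2.70 and 0.77, and the counts of members called and of departures were those without the block. The dim cTEC arrays limit what can be said of miR-17, miR-18a, miR-19a and miR-19b there.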
